A study of Mus musculus with 4 samples.

Results

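The collagen chains are every gene whose single platform symbol has the form of a collagen chain name, Col followed by a type number, the letter a and a chain number. This gave 44 of the 19938 named genes, measured by 46 of the 35556 probe sets, and a chain with several probe sets was read from the brightest on average. There are 11 fibrillar chains, 8 basement membrane and epithelial chains (Col4a1 to Col4a6, Col7a1 and Col17a1) and 25 chains of other classes. The values are log2 probe set intensities, and every difference is noggin minus BMP4, so a negative value means a lower level in noggin epidermis.

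RNA came from epidermis cut by laser out of stained sections of glabrous mouse hindpaw skin, with 8 to 10 strips from each animal. One line overexpressed noggin, an extracellular antagonist of bone morphogenetic proteins, and the other overexpressed BMP4, both from the K14 promoter, which is active in basal keratinocytes. Each array carried the pooled RNA of 3 animals, so that 6 animals of each line gave 2 noggin and 2 BMP4 arrays, and p-values measure the spread between pools. The labels used here name no strain, age or sex. Non-transgenic skin was not analysed here.

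Collagens are trimers of chains that wind into a triple helix. The fibrillar types I, III and V are made by dermal fibroblasts and give the dermis its tensile strength. Type IV forms the sheet of the basement membrane, type VII the anchoring fibrils that tie this sheet to the dermis, and type XVII crosses the basal keratinocyte membrane at hemidesmosomes. Keratinocytes themselves make types VII and XVII, while most other chains are products of mesenchymal cells.

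Of 14 keratinocyte markers 12 were measured, and Krt5 and Krt14, the basal keratin pair, lay between 12.2 and 12.6 on all arrays. Dcn, a dermal matrix proteoglycan, lay between 11.2 and 11.6. Levels of different probe sets cannot be set against each other, so these values do not give the share of dermal RNA. Nog was 5.92 and 5.99 in noggin and 6.13 and 6.04 in BMP4, and Bmp4 7.77 and 7.86 against 8.22 and 8.03 (limma, adjusted p = 0.946 and 0.874). Whether these probe sets register the transgenes is not known, so they do not check the labels. In RNA of captured tissue, fewer cells of a type and less RNA per cell cannot be told apart.

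No collagen chain passed the test between the lines. Limma with Benjamini-Hochberg adjustment called none of the array's 35556 probe sets (0%) and 0 of the 44 chains, with a threshold of 0.05 on the adjusted p, and the smallest adjusted p of a chain was 0.939. At an unadjusted p below 0.05 it gave 0 chains, 854 of 19938 named genes (4.28%) and 1994 probe sets (5.61%). The median difference was -0.063 over the 44 chains and -0.0064 over all named genes. Mean levels were lower in noggin for 33 of 44 chains and for 52.2% of named genes, with 29 to 33 chains under the other scalings of the arrays. The groups did not overlap for 8 of 44 chains, against 33.6% of named genes. The span over the 4 arrays reached 0.5 log2 units in 7 chains (13.3% of named genes) and 1 log2 unit in 0 (2.34%). The sign of the median rests on the noggin replicate 2 pool. Leaving that array out gave 0.024, and leaving out noggin replicate 1 gave -0.17. The value was -0.11 with BMP4 replicate 1 left out and -0.023 with BMP4 replicate 2 left out.

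Taken 1 chain at a time, the intervals limit the size of a difference in probe set intensity. All 44 chains had a 95% interval (limma) inside 1 log2 unit on either side of 0, which is a 2-fold change, and so did 95.7% of named genes. The farthest bounds were -0.78 for Col6a1 and 0.78 for Col6a2. Smaller differences are not resolved with 2 arrays a line, and the smallest two-sided p that an exact permutation test of one chain can give is 0.333.

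**Figure D1:**
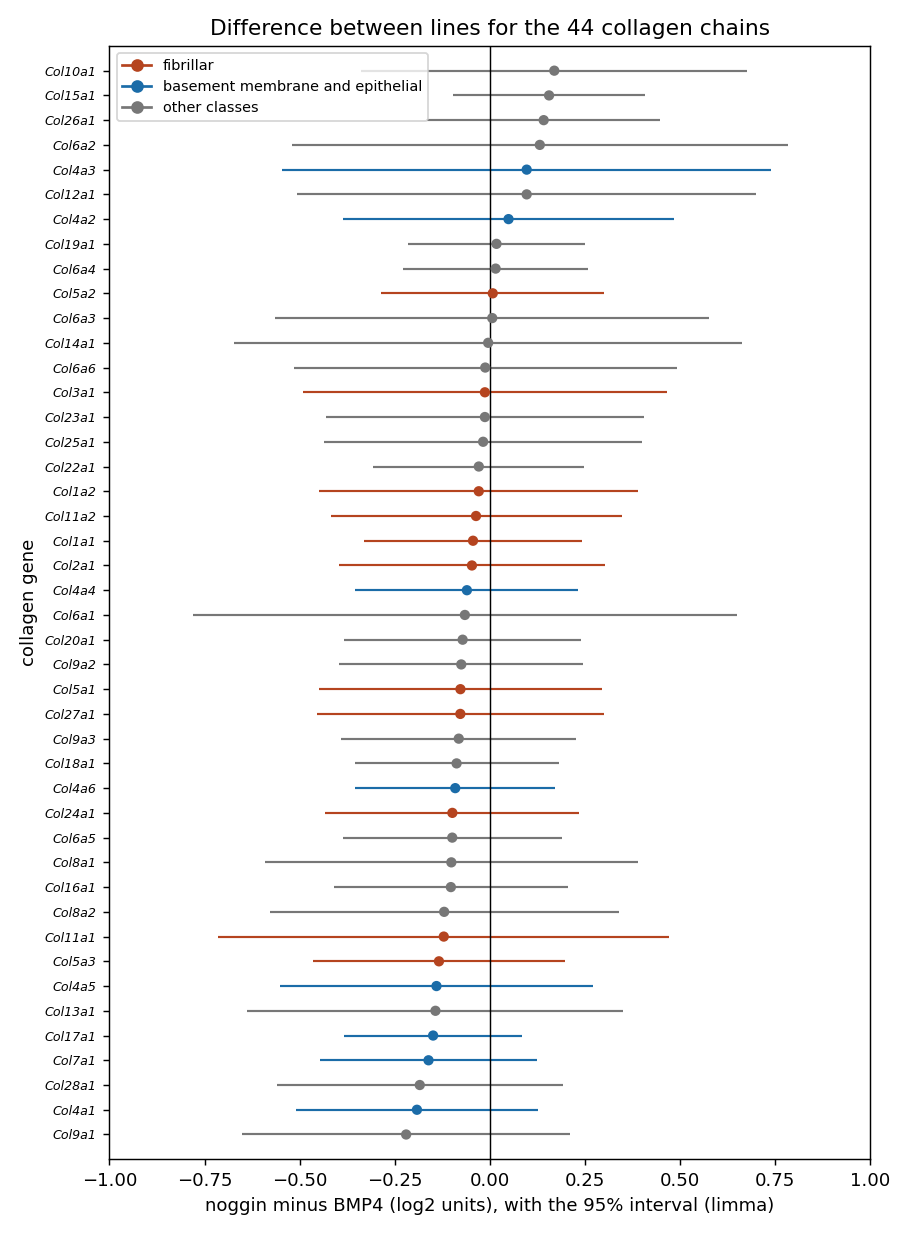
Difference between the lines for each of the 44 collagen chains (points, noggin minus BMP4 in log2 units) with its 95% interval from limma (lines), coloured by class. Every interval crosses 0 and lies inside 1 log2 unit, and the points run from -0.22 for Col9a1 to 0.17 for Col10a1.

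Types XVII and VII, both made by keratinocytes, lay slightly lower in both noggin pools, and neither was called. This order was found in 17.9% of named genes. Col17a1, the hemidesmosomal collagen known as BP180, was 8.35 and 8.34 in the noggin pools and 8.48 and 8.52 in the BMP4 pools. The groups did not overlap, and the replicates of a line lay closer together than the lines. Col17a1 was 1.11-fold higher in BMP4, at -0.15 (95% interval -0.38 to 0.085, limma adjusted p = 0.939), and leaving out 1 array gave -0.17 to -0.13. Col7a1, the chain of anchoring fibrils, was 7.06 and 6.91 in noggin and 7.10 and 7.20 in BMP4. Again the groups did not overlap, with Col7a1 1.12-fold higher in BMP4 at -0.16 (95% interval -0.45 to 0.12, limma adjusted p = 0.946). Leaving out 1 array gave -0.23 to -0.089.

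The 250 bases upstream of the annotated start are shown for Col17a1, a chain of keratinocytes whose groups did not overlap, and for Col3a1 and Col1a2, dermal chains that varied between pools of one line. They are RefSeq promoters on GRCm38.p6, at chr19:47692043-47692292 on the minus strand for Col17a1, and on the plus strand at chr1:45311288-45311537 for Col3a1 and chr6:4505368-4505617 for Col1a2. Capitals mark GTCT or its reverse complement AGAC, the core that SMAD proteins of the BMP and TGF-beta pathways bind.
Col17a1: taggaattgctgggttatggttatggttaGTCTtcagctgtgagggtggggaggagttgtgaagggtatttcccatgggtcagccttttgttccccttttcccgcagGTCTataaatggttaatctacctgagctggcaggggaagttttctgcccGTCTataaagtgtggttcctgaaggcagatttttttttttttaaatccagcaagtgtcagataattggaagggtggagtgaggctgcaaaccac
Col3a1: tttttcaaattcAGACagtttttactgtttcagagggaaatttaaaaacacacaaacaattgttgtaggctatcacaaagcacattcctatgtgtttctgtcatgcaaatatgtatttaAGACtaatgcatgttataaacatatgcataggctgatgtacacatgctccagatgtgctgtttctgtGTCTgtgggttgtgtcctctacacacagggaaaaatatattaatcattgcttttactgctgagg
Col1a2: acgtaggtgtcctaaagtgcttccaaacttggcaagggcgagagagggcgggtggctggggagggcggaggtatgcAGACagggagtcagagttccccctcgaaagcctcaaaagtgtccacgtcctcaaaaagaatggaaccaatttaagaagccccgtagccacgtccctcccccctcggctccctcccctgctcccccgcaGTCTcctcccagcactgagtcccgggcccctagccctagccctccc

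The core occurred 3 times upstream of Col17a1, 3 times upstream of Col3a1 and 2 times upstream of Col1a2. So short a core is common: read on both strands, it was found upstream of 29 of the 35 chains in the promoter table and of 85% of all genes there. The longer GGCGCC, a palindrome bound by BMP-activated SMADs, was found in 4 of 35 chains and 10.8% of genes, and in none of the 3 shown. The TATA box letters TATAAA, searched on both strands, were present in 5 of 35 chains and 14.3% of genes, with 2 matches upstream of Col17a1, 1 upstream of Col3a1 and 0 upstream of Col1a2. GGGCGG, the GC box, was found in 21 of 35 chains and 35.4% of genes, with 2 matches upstream of Col1a2. CCAAT was found in 13 of 35 chains and 37.5% of genes, and the AP-1 letters TGANTCA in 1 of 35 chains and 7.82% of genes. These are matches of letters in one window and say nothing about binding.

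Type IV chains, the network of the basement membrane, had no common direction. Col4a1, which pairs with Col4a2 in the most widespread type IV trimer, was 6.14 and 5.96 in noggin and 6.17 and 6.31 in BMP4. Its groups did not overlap, with a difference of -0.19 (95% interval -0.51 to 0.13) and an adjusted p of 0.939 in limma. Col4a2 was 6.84 and 6.60 in noggin and 6.53 and 6.82 in BMP4, a difference of 0.049 in which the groups overlapped. The 2 genes are transcribed in opposite directions from a common promoter, and their values did not have the same lowest array.

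The chains of the specialised type IV trimers were also near level. Col4a3 was 6.14 and 5.52 in the noggin pools, which bracketed the BMP4 values of 5.74 and 5.73. Its 1.54-fold span was the largest of the basement membrane chains and lay within one line. Col4a4 was 6.28 and 6.10 in noggin and 6.26 and 6.24 in BMP4. For Col4a5 the values were 6.44 and 6.15 in noggin and 6.53 and 6.33 in BMP4. Both chains overlapped between the lines. Col4a6 was 5.96 and 6.01 in noggin and 6.13 and 6.01 in BMP4, where the nearest pools differed only in the third decimal.

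Mean levels were lower in noggin for 6 of the 8 basement membrane and epithelial chains. Their median difference was -0.12, and none was called. Both noggin pools lay below both BMP4 pools for 4 of the 8, namely Col4a1, Col4a6, Col7a1 and Col17a1, against 17.9% of named genes, and for 3 of the 8 under each of the other scalings. The difference between lines was larger than both gaps between replicates for 3 of the 8, Col4a1, Col7a1 and Col17a1, against 21.9% of named genes. Over all 44 chains the count was 4, the other being Col15a1. Leaving out 1 array at a time moved the median of the 8 to -0.18 (noggin replicate 1), -0.042 (noggin replicate 2), -0.075 (BMP4 replicate 1) and -0.12 (BMP4 replicate 2). These chains share their arrays, and 8 chains are not 8 independent observations.

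**Figure D2:**
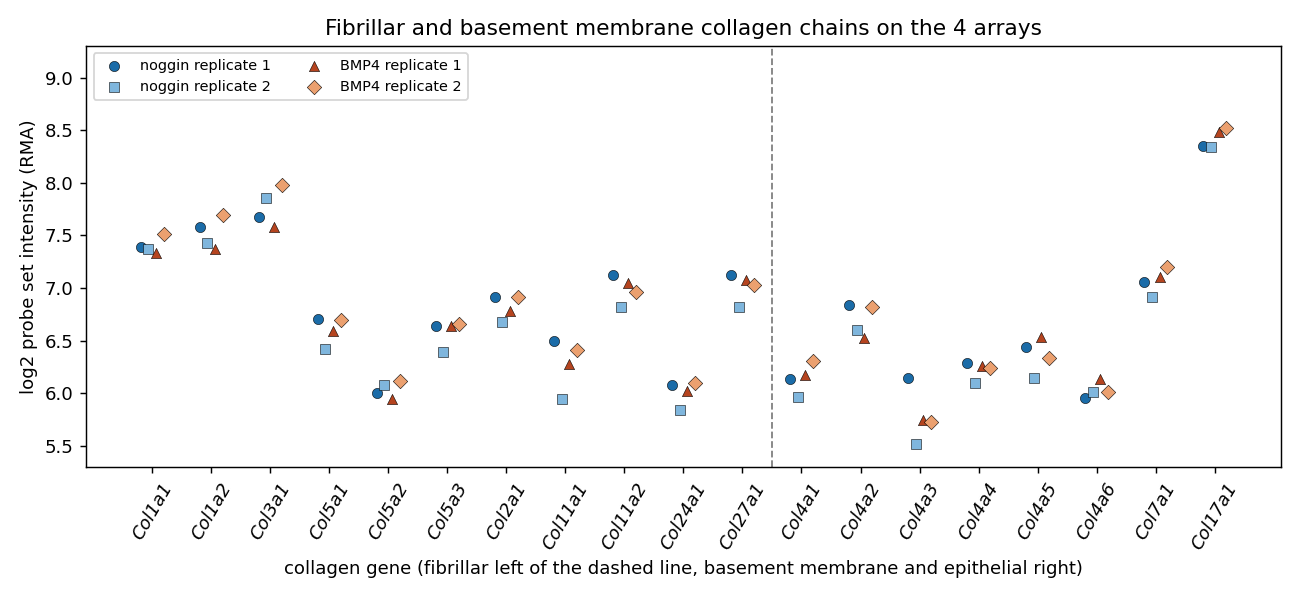
Log2 probe set intensity (y axis) of the 11 fibrillar chains and the 8 basement membrane and epithelial chains (x axis) on each of the 4 arrays (points, 1 pool each). Heights of different probe sets are not comparable, only the points of 1 chain. The points of Col17a1 separate by line, at 8.34 and 8.35 against 8.48 and 8.52, whereas in Col3a1 the BMP4 points are the lowest and the highest.

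Col1a1, Col1a2, Col3a1 and Col5a2, 4 of the 6 dermal fibrillar chains, had the BMP4 pools as the lowest and the highest arrays, while Col5a1 and Col5a3 were lowest in noggin replicate 2. Col1a1, the major chain of type I collagen, was 7.39 and 7.37 in noggin and 7.34 and 7.51 in BMP4. Its partner Col1a2 was 7.58 and 7.43 in noggin and 7.37 and 7.70 in BMP4. Col3a1, the chain of type III collagen, was 7.67 and 7.86 in noggin and 7.58 and 7.98 in BMP4. In all 3 chains the 2 BMP4 pools were the lowest and the highest of the 4 arrays. The differences between lines were -0.044 for Col1a1 (95% interval -0.33 to 0.24), -0.029 for Col1a2 (-0.45 to 0.39) and -0.013 for Col3a1 (-0.49 to 0.47), with adjusted p of 0.991 or more (limma).

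Type V collagen, which nucleates type I fibrils, split between its chains. Col5a2 was 6.01 and 6.08 in noggin and 5.95 and 6.12 in BMP4, the same order of arrays as Col3a1, its neighbour on chromosome 1. Col5a1 was 6.71 and 6.42 in noggin and 6.59 and 6.69 in BMP4, with noggin replicate 2 the lowest. Col5a3, a less widespread chain, was 6.64 and 6.39 in noggin and 6.64 and 6.66 in BMP4. It was the only fibrillar chain whose groups did not overlap, with a difference of -0.13 (limma, adjusted p = 0.957). The nearest pools differed only in the third decimal, and the difference was -0.011 with noggin replicate 2 left out.

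The fibrillar chains best known from cartilage had their lowest value in noggin replicate 2. Col2a1, the main chain of cartilage collagen, was 6.92 and 6.68 in noggin and 6.78 and 6.91 in BMP4. Col11a1, a chain of the thin fibrils of cartilage, was 6.50 and 5.95 in noggin and 6.27 and 6.41 in BMP4, and its 1.46-fold span was the largest of the fibrillar chains. Col11a2 was 7.12 and 6.82 in noggin and 7.04 and 6.97 in BMP4. In each of these chains the noggin pools bracketed both BMP4 pools. Col27a1 showed the same order, with 7.13 and 6.82 in noggin and 7.08 and 7.03 in BMP4.

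Mean levels were lower in noggin for 10 of the 11 fibrillar chains, and none was called. Their median difference was -0.047. Without 1 array the median was 0.048 (noggin replicate 2 left out), -0.19 (noggin replicate 1), -0.13 (BMP4 replicate 1) and -0.025 (BMP4 replicate 2). Fibrillar and basement membrane chains thus had medians of -0.047 and -0.12, and a difference between the classes was not tested.

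Type VI collagen, a microfibril network around dermal cells and basement membranes, had the widest spread between pools, with a median span of 0.50 over the 4 arrays against 0.31 for all chains and 0.26 for all named genes. Col6a1 was 7.39 and 7.65 in noggin and 7.26 and 7.91 in BMP4, a 1.57-fold span that was the widest of all chains. Col6a2 was 7.14 and 6.73 in noggin and 6.56 and 7.04 in BMP4, and Col6a3 was 6.65 and 6.67 in noggin and 6.39 and 6.93 in BMP4. BMP4 replicate 1 was the lowest array for all 3 chains, which form the common type VI trimer. Their differences between lines were -0.066, 0.13 and 0.0062, with intervals that reached beyond 0.5 log2 units on both sides. Col6a6, a chain that can replace Col6a3, was 6.78 and 6.32 in noggin and 6.53 and 6.60 in BMP4. Col6a5 and Col6a6 each had a second, dimmer probe set, with differences of -0.26 and -0.012 against -0.099 and -0.012 for the ones used.

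Fibril-associated chains, which coat the surface of collagen fibrils, were lowest in noggin replicate 2 for 6 of 9 and in BMP4 replicate 1 for 1 of 9. Their median span was 0.23, against 0.50 for type VI. Col14a1, found on type I fibrils of the dermis, was 6.06 and 6.12 in noggin and 5.77 and 6.42 in BMP4, a gap of 0.65 between the BMP4 pools against 0.061 between the noggin pools. Col12a1, a chain of tissue under tension, was 7.38 and 7.91 in noggin and 7.43 and 7.66 in BMP4. Noggin replicate 2 was here the highest array. Col16a1 was 6.67 and 6.46 in noggin and 6.66 and 6.68 in BMP4, and Col22a1, a chain of tissue junctions, 6.71 and 6.57 against 6.64 and 6.70. The 3 chains of type IX, a partner of cartilage fibrils, were lowest in noggin replicate 2. Col9a1, with the lowest difference of all chains at -0.22 (95% interval -0.65 to 0.21), was 5.99 and 5.66 in noggin and 5.95 and 6.13 in BMP4. Col9a2 was 7.41 and 7.18 in noggin and 7.38 and 7.36 in BMP4, and Col9a3 7.09 and 6.90 against 7.03 and 7.13.

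The remaining classes held 2 of the 3 chains in which both noggin pools lay above both BMP4 pools, an order found in 15.7% of named genes. Col15a1, a basement membrane zone collagen of vessels and muscle, was 6.54 and 6.56 in noggin and 6.34 and 6.45 in BMP4. It was 1.11-fold higher in noggin (difference 0.16, 95% interval -0.098 to 0.41, limma adjusted p = 0.939), and leaving out 1 array gave 0.10 to 0.21. Its relative Col18a1, the source of endostatin, was 6.53 and 6.46 in noggin and 6.64 and 6.52 in BMP4. Col26a1 was the other such chain here, at 7.08 and 6.88 in noggin and 6.82 and 6.86 in BMP4. Col28a1 was 5.31 and 5.14 in noggin and 5.28 and 5.54 in BMP4. Among the chains of short networks, Col8a1 was 7.47 and 7.05 in noggin and 7.29 and 7.43 in BMP4. Col10a1, known from hypertrophic cartilage, was 6.18 and 6.59 in noggin and 6.33 and 6.10 in BMP4, with the highest difference of all chains at 0.17. The transmembrane chain Col13a1 was 6.62 and 6.18 in noggin and 6.50 and 6.59 in BMP4, and Col23a1 6.72 and 6.60 against 6.50 and 6.84. Apart from Col15a1 and Col26a1, the groups overlapped in each of these chains.

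The 7 chains not given by array, Col6a4, Col6a5, Col8a2, Col19a1, Col20a1, Col24a1 and Col25a1, had means of at most 6.01 and differences between -0.12 and 0.017. Their spans over the 4 arrays ran from 0.029 in Col19a1, whose noggin pools lay above the BMP4 pools by that little, to 0.40 in Col8a2. No chain had a mean below the lower quartile of all probe sets, 4.73, but detection above background is unknown. Of the 44 chains, 27 had a mean above the median of all named genes.

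Pools of one line differed from each other in 2 recurring ways. The first was a low value in noggin replicate 2, which was the lowest array for 27 of 44 chains and for 32.6% of named genes, and for 26 or 27 chains under the other scalings. These 27 include 7 of the 11 fibrillar chains, 6 of the 8 basement membrane and epithelial chains and 6 of the 9 fibril-associated chains. All 5 fibrillar chains best known outside the dermis are among them, with a median gap of -0.30 between noggin replicates 2 and 1. The cartilage markers, among them Acan and Comp, were also lowest in that pool for 6 of 11 genes, at a median level of 5.58.

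The second was a low value in BMP4 replicate 1 and a high value in BMP4 replicate 2, the extremes of the 4 arrays. It was found in 8 of 44 chains and 7.85% of named genes, and in 7 or 8 chains under the other scalings. The 8 chains were Col1a1, Col1a2, Col3a1, Col5a2, Col6a1, Col6a3, Col14a1 and Col23a1, all but the last best known as products of dermal fibroblasts. None of the 8 basement membrane and epithelial chains had this order, a count near the share of named genes. The median gap between the BMP4 pools was 0.17 for the 6 dermal fibrillar chains and 0.29 for type VI, against 0.011 for the basement membrane and epithelial chains and 0.012 for all named genes. Single basement membrane and epithelial chains were not level between these pools, with gaps from -0.20 in Col4a5 to 0.29 in Col4a2 that offset each other in the median.

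**Figure D3:**
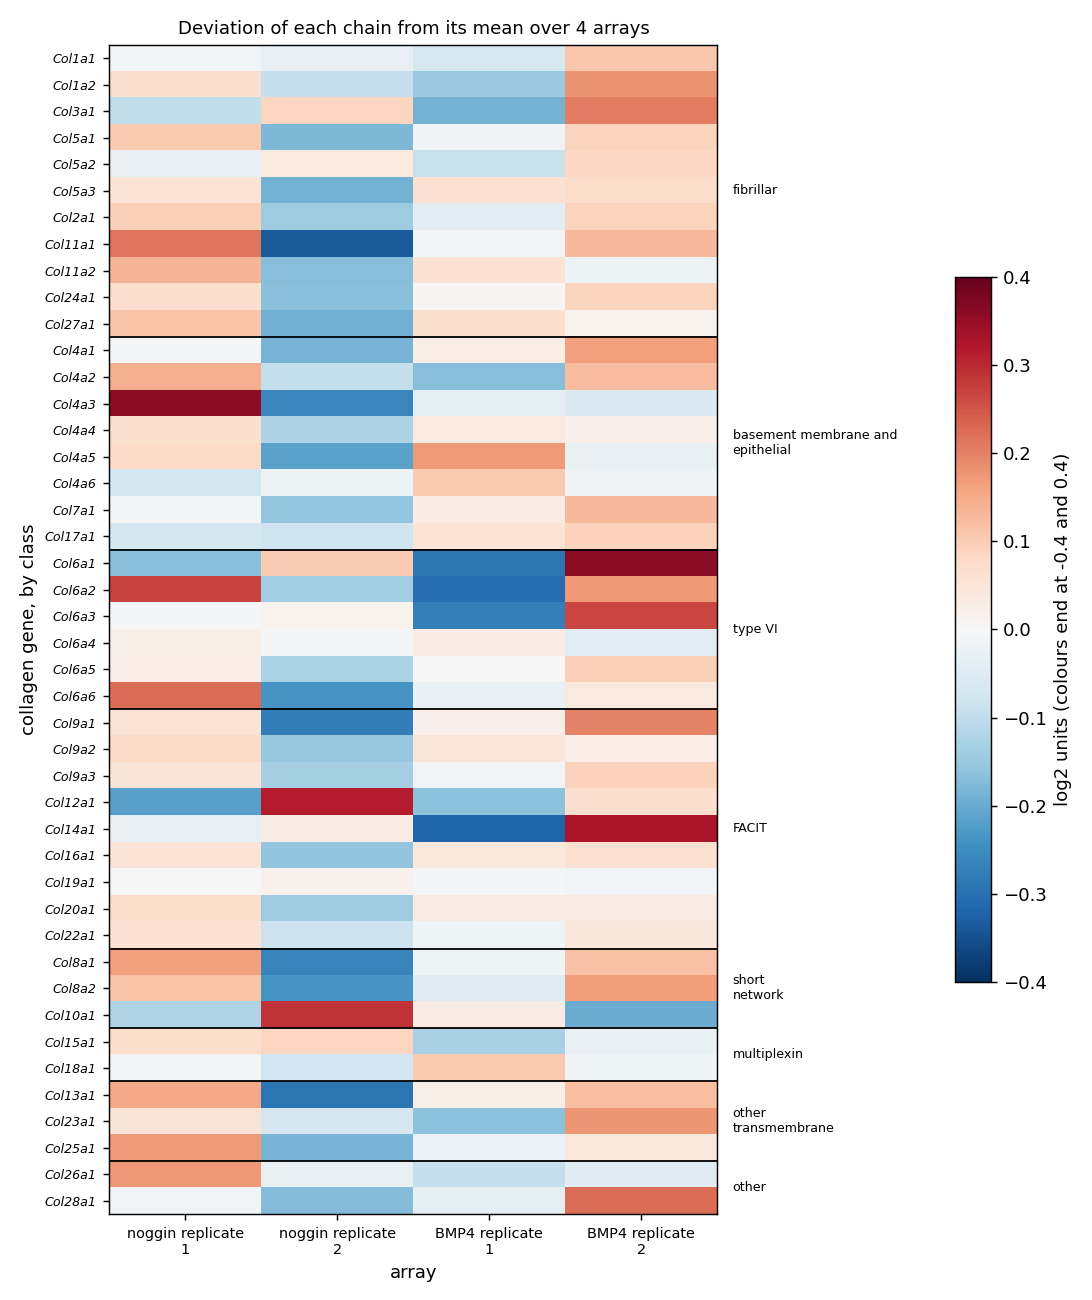
Deviation of each of the 44 chains (rows, by class) from its own mean over the 4 arrays (columns, 1 pool each), in log2 units from blue (lower) to red (higher). Noggin replicate 2 is blue for most chains and the lowest array for 27 of them, while Col3a1, Col6a1, Col6a3 and Col14a1 are blue in BMP4 replicate 1 and red in BMP4 replicate 2.

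Markers of dermal fibroblasts showed the same order. Of 21 markers 20 were measured. BMP4 replicate 1 was lowest and BMP4 replicate 2 highest in 10 of the 20, against 7.85% of named genes, and in 9 or 10 under the other scalings. Lum, a dermal proteoglycan, was 7.80 and 8.18 in noggin and 7.23 and 8.36 in BMP4, and Dcn was 11.4 and 11.2 in noggin and 11.2 and 11.6 in BMP4. The summed linear intensity of the 20 markers was 9955 and 10928 in the noggin pools and 7634 and 11722 in the BMP4 pools. Relative to each gene's mean, the markers had a median of -0.30 in the first BMP4 pool and 0.23 in the other. Between the lines the list had a median difference of 0.098, with 1 of 20 genes not overlapping, against 33.6% of named genes, and none called. Dpt, a dermal matrix protein, had the smallest p, at 8.68 and 9.31 in noggin and 7.29 and 8.59 in BMP4, and next came Fmod and Ogn, at -0.55 and 0.31. Postn had the largest difference of the list, 1.36 (95% interval -1.32 to 4.03, limma). It was 7.82 and 9.68 in noggin and 6.37 and 8.42 in BMP4. The interval was inside 1 log2 unit for 13 of the 20 markers and 95.7% of named genes. The part of fibroblast content in the collagen values was not tested.

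**Figure D4:**
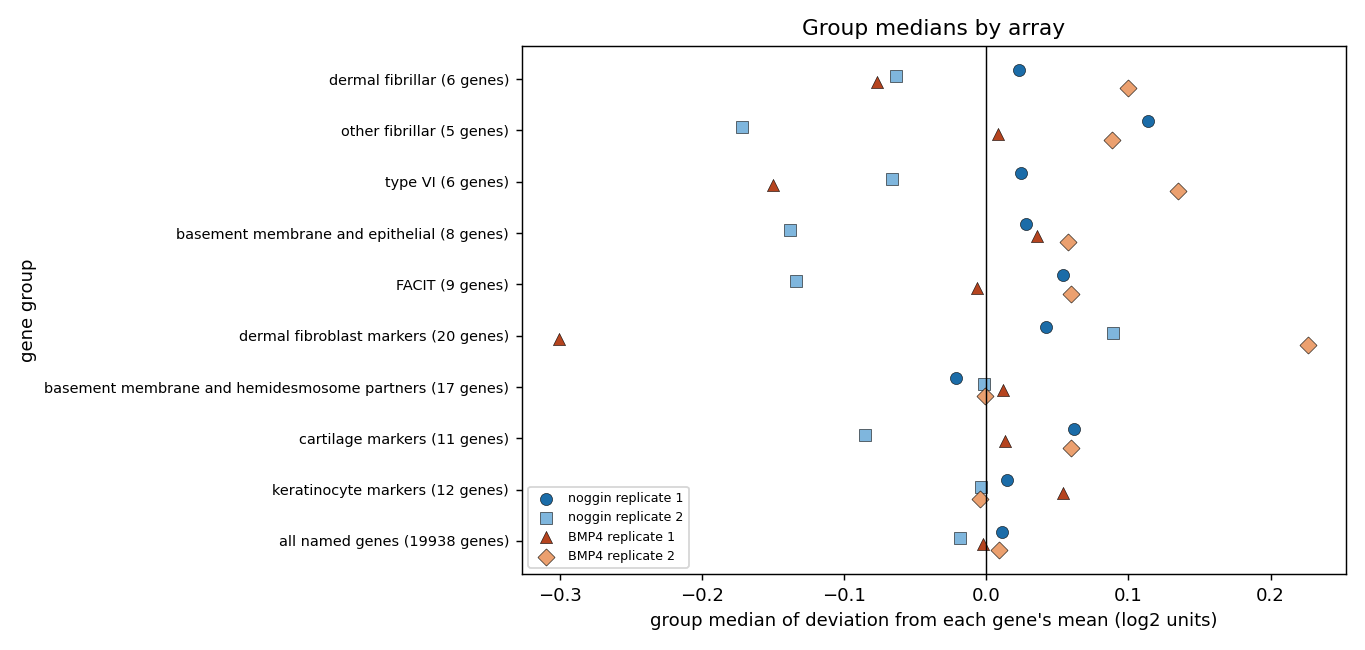
Median deviation from each gene's 4-array mean (x axis, log2 units) for collagen classes and marker lists (y axis, with the number of genes) on each array (points, 1 pool each). Dermal fibroblast markers run from -0.30 in BMP4 replicate 1 to 0.23 in BMP4 replicate 2, and the dermal fibrillar and type VI chains have the same lowest and highest pools.

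Partners of the epithelial chains at the basement membrane were close to level. Noggin had the lower mean in 11 of 17 measured of 18 genes, and their median difference was -0.019. Both noggin pools lay below both BMP4 pools in 4 of the 17, near the 17.9% of named genes, and none was called. Itgb4, the hemidesmosomal integrin that binds near Col17a1, was 8.41 and 8.30 in noggin and 8.54 and 8.51 in BMP4. Lama5 was 6.49 and 6.49 in noggin and 6.72 and 6.68 in BMP4, and Lamb3, a laminin chain of keratinocytes, 6.78 and 6.68 against 6.88 and 6.86. These 3 genes had the smallest p of the list, with differences of -0.21 for Lama5, -0.18 for Itgb4 and -0.14 for Lamb3 (limma, adjusted p = 0.892 or more).

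Enzymes that fold and modify collagen chains gave no call. Of 17 measured of 18 genes, 11 were on average lower in noggin, and the median was -0.034. Both noggin pools lay below both BMP4 pools for 5 of the 17 (17.9% of named genes) and above for 4 (15.7%). Serpinh1, the collagen chaperone HSP47, was 7.98 and 7.84 in noggin and 8.11 and 8.10 in BMP4, a difference of -0.20. The prolyl isomerase Fkbp14 differed by -0.22, and the prolyl hydroxylase subunit P4ha2 by 0.33, at 6.82 and 7.11 in noggin against 6.47 and 6.80 in BMP4.

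Among genes that process procollagen and cross-link fibrils, 2 of 12 measured of 14 had an unadjusted p below 0.05, against 4.28% of named genes, and none was called. Tll1, a relative of the procollagen C-proteinase Bmp1, was 5.70 and 5.80 in noggin and 6.40 and 6.32 in BMP4, a difference of -0.61 (limma, adjusted p = 0.701). Pcolce2, an enhancer of that proteinase, was 7.55 and 7.54 in noggin and 7.998 and 8.42 in BMP4, a difference of -0.66 (limma, adjusted p = 0.808). In both genes the lines did not overlap and the pools of noggin lay within 0.11 of each other. The lysyl oxidase Loxl3 differed by -0.23, and the median of the 12 genes was -0.033, with 7 lower in noggin.

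Collagen breakdown genes and their inhibitors had a median difference of -0.032 over 15 genes, 8 of them lower in noggin. Timp3, an inhibitor of metalloproteinases, was 8.59 and 8.39 in noggin and 8.17 and 8.13 in BMP4, a difference of 0.34 (limma, adjusted p = 0.867). It was the 1 gene of the 15 with an unadjusted p below 0.05 (4.28% of named genes). The metalloproteinases Mmp10 and Mmp9 differed by -0.30 and -0.14, and none of the 15 was called.

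Of 8 measured of 9 collagen receptors, 5 were on average lower in noggin, and the median was -0.016. The 1 receptor with an unadjusted p below 0.05 (4.28% of named genes) was Itga2, the collagen-binding integrin subunit of keratinocytes, at 7.36 and 7.64 in noggin and 7.97 and 8.05 in BMP4. Itga2 was 1.43-fold higher in BMP4, a difference of -0.52 that was larger than the gaps between pools (limma, adjusted p = 0.808). Itga11, a fibroblast subunit, differed by 0.29, and the collagen receptor kinase Ddr1 by -0.18. None of these genes was called.

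Markers of other cell types that strips could hold were set beside the chains. Their median differences were 0.64 for 14 skeletal muscle, 0.68 for 9 Langerhans cell and macrophage, 0.24 for 5 T cell, 0.036 for 9 endothelial, -0.014 for 5 Schwann cell, -0.12 for 7 adipocyte, -0.073 for 11 cartilage, 0.022 for 8 sweat gland and -0.0027 for 12 keratinocyte markers. Noggin replicate 1 was the highest array for all 14 skeletal muscle markers. Their median deviations were 0.79 and -0.13 in the noggin pools and -0.87 and 0.23 in the BMP4 pools. The groups did not overlap for 2 of the 14, against 33.6% of named genes. BMP4 replicate 1 was the lowest array for 4 of the 6 dermal fibrillar chains. It had the lowest summed linear intensity of the 4 arrays for 7 of these 9 lists. The sums there were 2740 for skeletal muscle (4993 to 9669 on the other arrays), 1212 for Langerhans cell and macrophage (2342 to 3151), 269 for T cell (327 to 412) and 661 for endothelial markers (697 to 783). They were 893 for Schwann cell (990 to 1080), 571 for adipocyte (621 to 1013) and 2162 for sweat gland markers (2196 to 2686). Sums weigh bright genes most. The median deviation from each gene's mean was lowest in BMP4 replicate 1 for skeletal muscle, Langerhans cell and macrophage, T cell and endothelial markers. For 3 lists it was lowest in noggin replicate 2. Against BMP4 replicate 1 it was -0.13 and -0.093 for Schwann cell, -0.19 and -0.15 for adipocyte and -0.11 and -0.046 for sweat gland markers. The cartilage sum was lowest in noggin replicate 2, at 705, and the keratinocyte sum lay between 70220 and 71570. Their part in the collagen values was not tested. Both noggin pools lay above both BMP4 pools in 6 of the 9 Langerhans cell and macrophage markers, with Cd207, Itgax and H2-Aa of smallest p, and in 3 of the 5 T cell markers, Cd69 and Cd3g among them, against 15.7% of named genes. None of these was called.

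Position in the genome was compared with the order of the arrays. On GRCm38.p6, 8 pairs of chains were neighbouring protein-coding genes, and 4 of the 8 pairs had the same lowest array. These were Col3a1 with Col5a2, Col4a3 with Col4a4, Col6a1 with Col6a2, and Col6a5 with Col6a6. The shared array was noggin replicate 2 or BMP4 replicate 1, the lowest array for 27 and 12 of all 44 chains. Pairs of chains that are not neighbours can therefore often share it too, and an effect of position was not tested.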

How the data were processed

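The authors deposited log2 intensities per probe set for 4 whole-transcript arrays. RMA and Affymetrix Expression Console are given, without versions, in the submitters' processing notes. RMA quantile-normalizes the arrays, which removes differences in overall signal and compresses changes of dim probe sets. Amplification was by the NuGEN pico protocol, per the labels' protocols. Limma 3.58.1 (R 4.3.3; lmFit, then eBayes) was run on all 35556 probe sets (line as the only term, two-sided, Benjamini-Hochberg over all probe sets, threshold 0.05). The platform table gave 1 symbol for 21789 probe sets. Errors come from 2 arrays a line, and the number of arrays limits the precision. The members, classes and lists were chosen with earlier results of these data known. Chains of types I, III, IV, V, VII and XVII are given by array, as are others above the median of all genes or among the 8 of smallest p or largest range. From each list up to 3 genes of smallest p, and the first 2 of cell type lists, could be named. Mmp3 and Postn were added later, as the largest differences of their lists. Other settings tried were a block on replicate number, another prior, a filter on dim probe sets, other scalings, the mean of probe sets, other thresholds and leaving out each array. Plots used Python 3.11.15 and matplotlib 3.10.9.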

Additional observations from a re-analysis of the deposited data

How the results depend on the processing

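No chain and no probe set was called under the other priors, scalings, filters and probe set rules, or at an adjusted p below 0.1. Leaving out 1 array also gave 0 calls, but then 1 line has a single array assumed to vary like the other line's, so this says nothing about stability. An unadjusted p below 0.05 gave 1994 probe sets and 0 chains. The replicate number as a block also gave 0 chains and 0 probe sets. Same-numbered arrays had deviations with a correlation of -0.12. No label links the numbers to animals, litters or days, so the pairs share a number and nothing else known. Chains whose groups did not overlap numbered 8, 7 to 9 under other scalings, and 21 to 33 without 1 array, where a lone array overlaps less by construction. On leaving out 1 array the median difference ranged from -0.17 to 0.024 over all chains, -0.19 to 0.048 over fibrillar chains and -0.18 to -0.042 over basement membrane and epithelial chains. Of the 37 chains given by array, 27 had a difference that took the other sign without 1 array. The ranges were -0.13 to 0.042 for Col1a1, -0.19 to 0.13 for Col1a2, -0.21 to 0.18 for Col3a1, -0.22 to 0.065 for Col5a1, -0.078 to 0.093 for Col5a2, -0.17 to 0.072 for Col2a1, -0.40 to 0.15 for Col11a1, -0.19 to 0.12 for Col11a2 and -0.23 to 0.075 for Col27a1. They were -0.098 to 0.20 for Col4a2, -0.21 to 0.41 for Col4a3, -0.15 to 0.033 for Col4a4, -0.29 to 0.0050 for Col4a5, -0.39 to 0.26 for Col6a1, -0.11 to 0.37 for Col6a2, -0.26 to 0.28 for Col6a3, -0.24 to 0.22 for Col6a6 and -0.19 to 0.039 for Col9a2. They were -0.17 to 0.011 for Col9a3, -0.17 to 0.36 for Col12a1, -0.33 to 0.32 for Col14a1, -0.21 to 0.0026 for Col16a1, -0.10 to 0.043 for Col22a1, -0.31 to 0.11 for Col8a1, -0.035 to 0.37 for Col10a1, -0.36 to 0.078 for Col13a1 and -0.18 to 0.16 for Col23a1. Col6a6 also took the other sign under further quantile normalization (6.6e-05) and cyclic loess (0.0032), as did Col14a1 (0.013) and Col23a1 (0.0015) under cyclic loess. The cause was not tested.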
